A study of Sus scrofa with 6 samples.

Results

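The genes described here are CYTB, COX1, COX2, COX3, ATP6 and ATP8, 6 of the 13 protein-coding genes that the mitochondrial genome carries. They were taken by their pig symbols from tables of 22844 rows, and all 6 were found. RNA sequencing was done on subcutaneous fat of Duroc, Landrace and Yorkshire hybrid pigs. One group of 3 libraries came from a diet with resveratrol, a plant polyphenol, at 400 mg/kg, and the other group of 3 libraries came from the control diet. No age, sex or genotype beyond the cross was stated. Whether each library is a different animal is also not stated in the labels, so the p-values describe only how far these libraries scatter, and that scatter may be technical.

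Mitochondrial DNA is transcribed as long precursors from both strands, and the messages are cut out mostly at the transfer RNAs that lie between them. CYTB encodes the cytochrome b subunit of complex III, which passes electrons from ubiquinol to cytochrome c. COX1, COX2 and COX3 encode the core of complex IV (cytochrome c oxidase), which reduces oxygen: COX1 holds haem and copper centres, COX2 receives electrons from cytochrome c, and COX3 is the third core subunit. ATP6 and ATP8 encode membrane subunits of the ATP synthase, and ATP6 forms part of its proton channel. Each of these subunits has to be joined with subunits made from nuclear genes. In the RefSeq annotation of Sscrofa11.1 the order along the mitochondrial genome was COX1, COX2, ATP8, ATP6 and COX3, then the genes ND3 to ND6, then CYTB. There ATP8 overlaps ATP6, and ATP6 overlaps COX3, so reads at these borders cannot be assigned to one gene with certainty. The same holds for reads shared with copies of mitochondrial DNA in the nuclear genome.

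Library totals ran from 34436239 to 37943877 reads in resveratrol and from 16251536 to 34048559 reads in control, and control 2 was the shallowest library. The 7 adipocyte markers present in the files summed to between 20990.2 and 26604 TPM in resveratrol and between 17112 and 24045 TPM in control, and no marker was at 0, so the tissue label was matched by its markers. The 5 skeletal muscle markers present summed to between 1.13 and 2.47 TPM in resveratrol and between 1.81 and 2.55 TPM in control, near 0 in all 6 libraries. The 6 tendon and cartilage markers summed to between 18.2 and 32.7 TPM in resveratrol and between 33.9 and 338 TPM in control, with control 1 highest. The 8 macrophage markers summed to between 285 and 389.8 TPM in resveratrol and between 228 and 252 TPM in control. The 4 fibroblast markers summed to between 1250.02 and 1739.7 TPM in resveratrol and between 1598 and 4329 TPM in control, again with control 1 highest. In control 1 most of that sum was COL1A1 (3536 TPM). There COL1A1 and DCN (721 TPM) were the highest of the 6 libraries, LUM (55.3 TPM) was the lowest and PDGFRA (17.7 TPM) was neither. Markers of vessel endothelium (5 genes) summed to between 205 and 229.6 TPM in resveratrol and between 213 and 298 TPM in control, and those of erythrocytes (2 genes) to between 1028 and 1202 TPM in resveratrol and between 771 and 1103 TPM in control. The part of depth or of these cell types in the results below was not tested.

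COX1 was the most abundant of the 6 genes per length, and its level did not separate the diets. It measured 5151, 5209 and 6005 TPM (a transcript abundance that the authors scaled for length and library total) in resveratrol 1, 2 and 3, against 3765, 7161 and 5468 TPM in control 1, 2 and 3. The control libraries held both the lowest and the highest value, so the groups overlapped. The means were 5455 ± 477 TPM in resveratrol and 5465 ± 1698 TPM in control (SD, n = 3 each). By reads, COX1 ranked between the fourth and the seventh of all rows in each library, with 265555 to 551135 reads.

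COX3 and COX2 followed COX1. COX3 measured 2103, 1703 and 1169 TPM in resveratrol 1, 2 and 3, against 1743, 3738 and 2296 TPM in control 1, 2 and 3. COX2 measured 1114, 1094 and 1305 TPM in resveratrol, against 1071, 2454 and 1302 TPM in control. In both genes control 2 stood above the other 5 libraries and the groups overlapped. COX3 was above COX2 in 5 of 6 libraries. Resveratrol 3 was the exception with a COX3 to COX2 ratio of 0.896 in TPM, so their order was not the same in every library.

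The 2 ATP synthase genes were lower than the COX genes per length. ATP8 and ATP6 overlap, as said above, so their values need not be those of separate messages. ATP6 measured 344, 304 and 394 TPM in resveratrol 1, 2 and 3, against 354, 978 and 479 TPM in control 1, 2 and 3. ATP8 measured 212, 178 and 234 TPM in resveratrol, against 261, 1101 and 224 TPM in control. Control 2 was the highest library in both, and the other 5 libraries lay between 304 and 479 TPM for ATP6 and between 178 and 261 TPM for ATP8. ATP8 rests on few reads, 397 to 970 per library. A read of this short gene counted for 40.8 to 42.1 times as much TPM as a read of COX1.

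CYTB was the one member of the 6 whose groups did not overlap. It measured 232, 218 and 185 TPM in resveratrol 1, 2 and 3, against 291, 812 and 280.5 TPM in control 1, 2 and 3. Every resveratrol library was below every control library, with a mean of 212 ± 24.3 TPM in resveratrol and 461 ± 304 TPM in control (SD, n = 3 each). Over all 14908 tested rows, 8.15% were lower without overlap in TPM, and 6.97% in counts scaled between libraries, the scale of the test below. In TPM, CYTB and ATP8 did not keep one order, since CYTB was above ATP8 in 4 of 6 libraries. COX1 exceeded COX3, COX2 exceeded ATP6, and ATP6 exceeded CYTB in 6 of 6. In reads, ATP8 (397 to 970) was below CYTB (11580 to 20570) in every library.

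**Figure D1:**
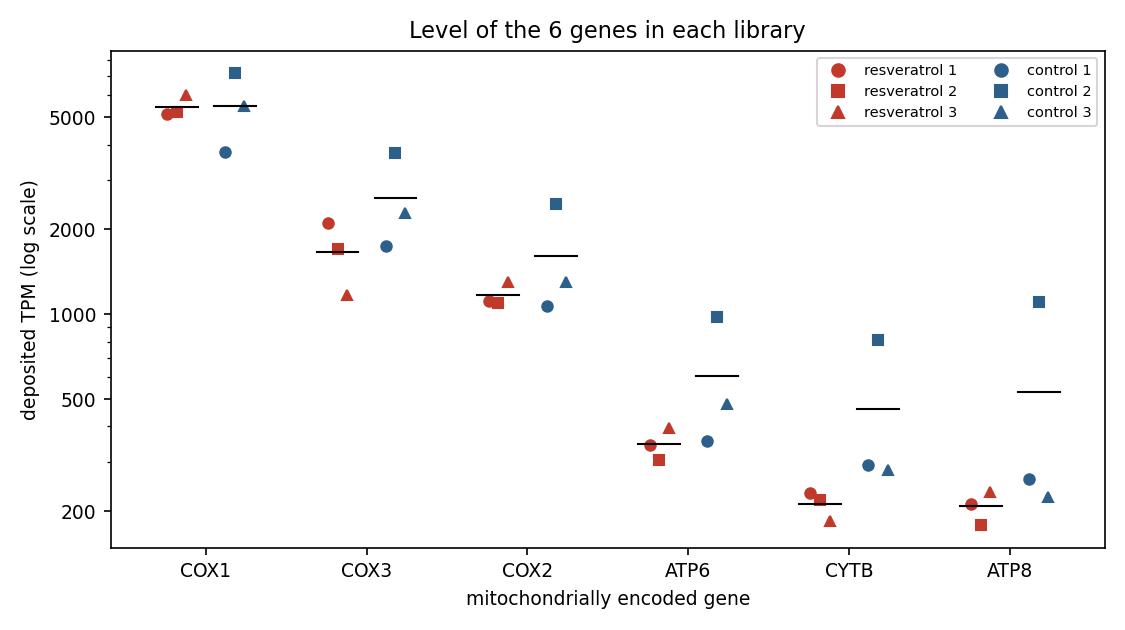
Deposited TPM (log axis) of the 6 mitochondrially encoded genes, ordered by median, with 1 point per library, resveratrol left of control, and a bar at each group mean. Control 2 is the highest library for every gene, at 1101 TPM for ATP8 and 812 TPM for CYTB, and the 3 resveratrol libraries of CYTB lie below all 3 control libraries.

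The spread within the groups was unequal. The coefficient of variation of TPM ran from 8.75% (COX1) to 28.3% (COX3) in resveratrol and from 31.1% (COX1) to 93.8% (ATP8) in control. In TPM, control 2 stood at 4.54 times the mean of control 1 and 3 for ATP8, 2.84 times for CYTB and 2.35 times for ATP6. It stood at 2.07 times that mean for COX2, 1.85 times for COX3 and 1.55 times for COX1. In counts scaled between libraries these ratios were smaller, at 3.64, 2.33, 1.90, 1.67, 1.51 and 1.28 in the same order of genes. In resveratrol, resveratrol 3 combined the highest COX1, COX2, ATP6 and ATP8 with the lowest COX3 and CYTB of its group.

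The first comparison asked whether the diet changed the level of these genes. It used edgeR's quasi-likelihood test on the read counts of all tested rows, with Benjamini-Hochberg adjustment over them. None of the 6 passed the adjusted threshold of 0.05, and neither did any other row (0% of rows called). The log2 fold change of CYTB was -0.98 (SE 0.32, adjusted p = 0.733, unadjusted p = 0.0120) and that of ATP6 -0.66 (SE 0.28, adjusted p = 0.733, unadjusted p = 0.0426). These 2 of 6 were lower at an unadjusted p under 0.05, against 4.32% of all rows. The count was 1 of 6 (CYTB) in limma on log2 TPM, with library totals alone, with a replicate block (ATP6 unadjusted p = 0.0503) and without resveratrol 2 or control 2, and 3 of 6 in edgeR without the robust option or without control 3. It was 4 of 6 in DESeq2 and without control 1, where COX3 and ATP8 were added. Of the 14908 rows, 644 were lower at that threshold in edgeR on 6 libraries, and this number also moved with the setting. It was 748 in DESeq2, 558 in limma on log2(TPM + 0.5), 339 with library totals alone and 812 with the replicate block. It was 658 without the robust option, 634 without resveratrol 2, 627 without control 1, 849 without control 2 and 1041 without control 3. At that unadjusted threshold 973 rows differed in either direction (6.53%), DESeq2 called 40 rows (0.268%) after adjustment, and no member was among them, with CYTB closest (adjusted p = 0.196).

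The other 4 members did not pass at the unadjusted threshold. ATP8 had the most negative log2 fold change and the widest error, -1.14 (SE 0.52, adjusted p = 0.733). That of COX3 was -0.54 (SE 0.27, adjusted p = 0.733) and that of COX2 -0.33 (SE 0.26, adjusted p = 0.765). That of COX1 was 0.12 (SE 0.27, adjusted p = 0.931). The median over the 6 genes was -0.60, with 5 below 0, while the median over all tested rows was -0.01 and 51.2% of rows were below 0.

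The negative values were closer to 0 without control 2. Without it the median over the 6 was -0.26, and in edgeR the log2 fold change became -0.44 (SE 0.15) for CYTB, -0.23 for ATP8, -0.28 for ATP6, -0.32 for COX3 and -0.04 for COX2, while that of COX1 became 0.25. CYTB kept an unadjusted p of 0.0194 (adjusted p = 0.50), and the unadjusted p of ATP6 was 0.213. The 3 resveratrol libraries of CYTB still lay below control 1 and control 3, where 13.6% of all rows were lower without overlap. Control 2 was also the library with the fewest reads, and the part of its depth was not tested. The sign of COX1 depended on the libraries, with a log2 fold change of -0.055 without control 1 and -0.0016 without resveratrol 3.

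**Figure D2:**
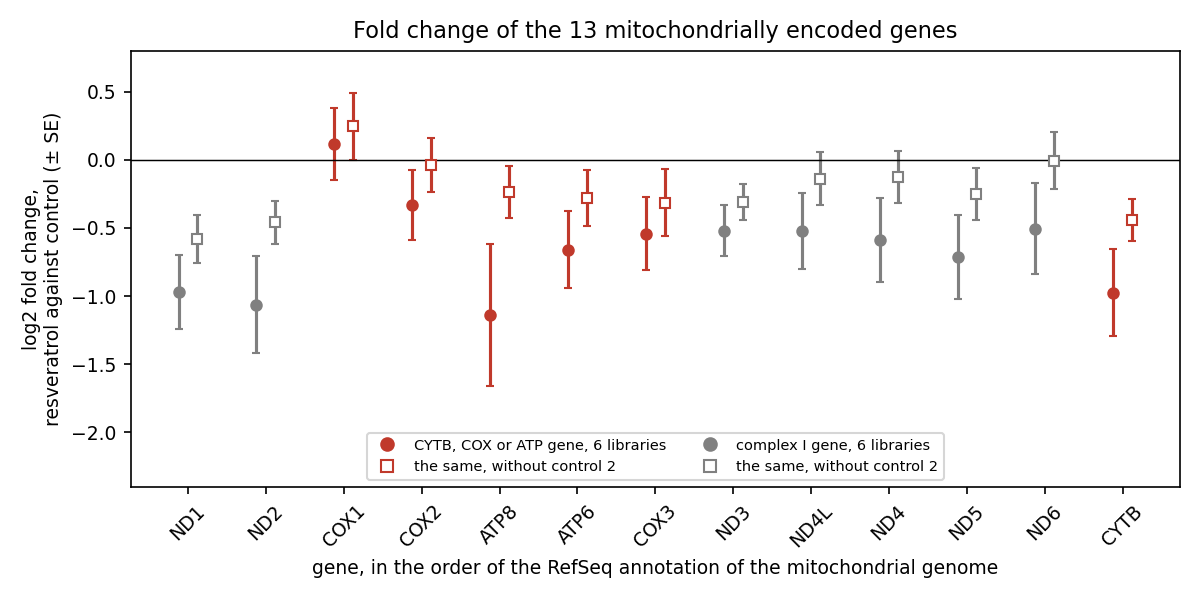
Log2 fold change of resveratrol against control (edgeR, bars are ± 1 SE) for the 13 mitochondrially encoded genes in their order on the mitochondrial genome. Filled points use all 6 libraries and open squares leave out control 2. COX1 is the one gene above 0 with all libraries (it is below 0 without control 1 or resveratrol 3), and the other 12 move toward 0 without control 2.

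The second comparison asked how large a part of the library the 6 genes took together. They held 1.76%, 1.57% and 1.91% of all reads in resveratrol 1, 2 and 3, against 1.23%, 2.37% and 1.63% in control 1, 2 and 3. The control libraries again spanned the resveratrol ones. The means were 1.75 ± 0.171% in resveratrol and 1.74 ± 0.579% in control (SD, n = 3 each), and a two-sided exact permutation test gave p = 1. With 3 against 3 the smallest p this test can give is 0.1. Without COX1 the remaining 5 held 0.340 ± 0.0487% in resveratrol and 0.487 ± 0.217% in control (exact permutation p = 0.3).

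The makeup of these reads differed more than their sum. COX1 made up 77.5%, 79.9% and 83.8% of the reads of the 6 genes in resveratrol 1, 2 and 3, against 72.8%, 69.0% and 75.9% in control 1, 2 and 3. Every resveratrol library was above every control library, with means of 80.4 ± 3.17% in resveratrol and 72.6 ± 3.49% in control (SD, n = 3 each). The exact permutation p was 0.1, the smallest this design can reach, and 0.12 after adjustment over the 6 shares. The 95% Wilson interval of a single share was at most 0.292 percentage points wide, which covers counting error only.

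For 4 other genes the highest resveratrol share lay below the lowest control share. CYTB made up 2.38%, 2.29% and 1.76% in resveratrol, against 3.87%, 5.34% and 2.67% in control. COX3 made up 12.8%, 10.6% and 6.59% in resveratrol, against 13.9%, 14.6% and 13.1% in control, so that resveratrol 3 stood far below the rest. COX2 made up 5.54%, 5.58% and 6.002% in resveratrol, against 7.01%, 7.80% and 6.06% in control, and the nearest libraries of the groups nearly touched. ATP6 made up 1.69%, 1.52% and 1.78% in resveratrol, against 2.28%, 3.06% and 2.19% in control. Each of these 4 shares had an exact permutation p of 0.1 (0.12 adjusted). In shares of deposited TPM, CYTB and ATP6 again did not overlap, but COX2 and COX3 did (exact permutation p = 0.2 each). The shares are defined within the 6 genes only, so no share over all rows stands beside this count. ATP8 made up 0.0739 ± 0.00624% in resveratrol and 0.151 ± 0.0911% in control, and its groups overlapped (exact permutation p = 0.3). The 6 shares add up to the whole, so they are not separate results, and a higher COX1 share lowers the others by itself.

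**Figure D3:**
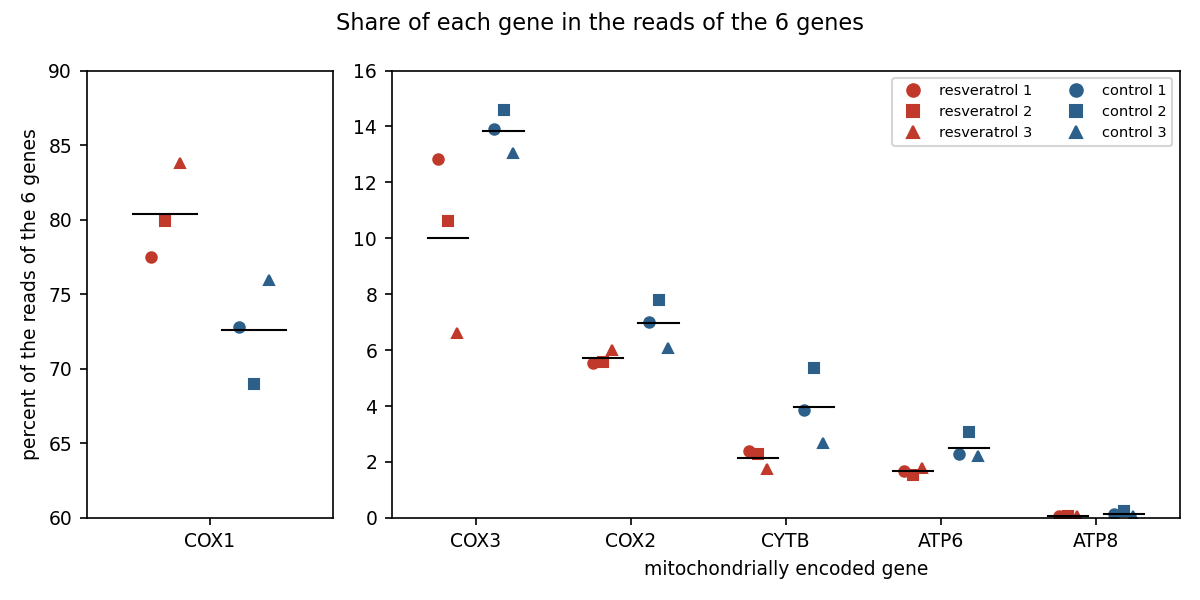
Percent of the reads of the 6 genes that each gene took, with 1 point per library, resveratrol left of control, and a bar at each group mean. The left axis starts at 60% and shows COX1, at 77.5% to 83.8% in resveratrol and 69.0% to 75.9% in control, and the right axis starts at 0 and shows the other 5 genes.

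Ratios within a library need no scaling between libraries. They restate the reads behind the shares above and are not a separate result. The groups did not overlap for any of the 5 partners of COX1, also not for ATP8, whose share did overlap. There were 32.5, 34.9 and 47.6 reads of COX1 per read of CYTB in resveratrol 1, 2 and 3, against 18.8, 12.9 and 28.4 in control 1, 2 and 3. On the log2 scale this ratio was 5.24 ± 0.29 in resveratrol and 4.25 ± 0.57 in control (SD, n = 3 each), a difference of 0.99 (exact permutation p = 0.1). The deposited TPM gave a difference of 0.98, and leaving out control 2 gave 0.71.

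The ratio of COX1 to COX2 hardly varied within resveratrol, at 14.0, 14.3 and 14.0 reads per read, against 10.4, 8.84 and 12.5 in control. For COX3 it was 6.05, 7.52 and 12.7 in resveratrol, against 5.24, 4.73 and 5.81 in control. For ATP6 it was 46.0, 52.5 and 47.0 in resveratrol, against 32.0, 22.6 and 34.6 in control. In each of these the lowest resveratrol library stood above the highest control library. For ATP8 it was 1005, 1198 and 1076 in resveratrol, against 588, 274 and 1003 in control, so resveratrol 1 and control 3 nearly touched. The log2 differences were 0.43 for COX2, 0.67 for COX3, 0.73 for ATP6 and 1.002 for ATP8, each with an exact permutation p of 0.1 and an adjusted p of 0.1 over the 5 ratios. The read ratio of COX1 to a row was higher in resveratrol without overlap for 4.74% of all tested rows. Without control 2 the log2 difference was 0.51 for ATP8, and without resveratrol 3 it was 0.36 for COX3. All 5 ratios share the COX1 reads, so they are not independent of each other.

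**Figure D4:**
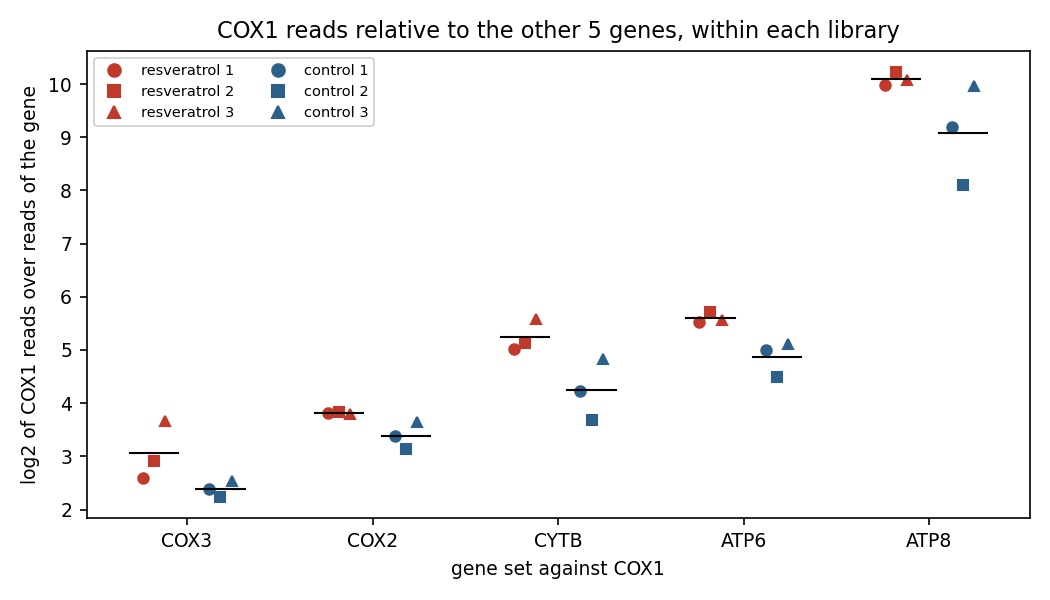
Log2 of COX1 reads over the reads of each of the other 5 genes, with 1 point per library, resveratrol left of control, and a bar at each group mean. For each gene the 3 resveratrol points lie above the 3 control points, and the gap is smallest for ATP8 (1005 against 1003 COX1 reads per ATP8 read at the nearest libraries).

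Of the 10 pairs among the other 5 members, 3 pairs of ATP6 (with COX3, ATP8 and COX2) and the pair of COX3 and COX2 are given. No pair with CYTB is among them. There were 7.60, 6.98 and 3.70 reads of COX3 per read of ATP6 in resveratrol, against 6.10, 4.76 and 5.95 in control, so the groups overlapped. For ATP6 per read of ATP8, the values were 21.9, 22.8 and 22.9 in resveratrol, against 18.4, 12.1 and 29.0 in control, again with overlap. COX2 per read of ATP6 was 3.29, 3.66 and 3.37 in resveratrol, against 3.07, 2.55 and 2.76 in control, without overlap. The read ratio of COX2 to a row was higher in resveratrol without overlap for 0.449% of all tested rows. Among the pairs given here, such a share was taken only for this pair, the one without overlap. COX3 per read of COX2 was 2.31, 1.90 and 1.10 in resveratrol, against 1.98, 1.87 and 2.15 in control, with overlap.

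The 7 mitochondrially encoded subunits of complex I had log2 fold changes from -1.06 to -0.50, all below 0, with a median of -0.59. At an unadjusted p under 0.05, 4 of 7 were lower in edgeR, against 4.32% of all tested rows, and 0 of 7 passed after adjustment. The count was 2 of 7 in limma, with library totals alone and without resveratrol 2. It was 3 of 7 with the replicate block and without resveratrol 1, resveratrol 3 or control 2. It was 5 of 7 without control 1 and 6 of 7 without control 3. Over all rows 332 were lower without resveratrol 1 and 222 without resveratrol 3, and the other settings are given above. Their levels ran from 55.6 to 531 TPM in resveratrol and from 64.2 to 1255 TPM in control. The read ratio of COX1 to them was higher in resveratrol without overlap for 3 of 7, against 4.74% of all tested rows. These were ND1, ND2 and ND3 (named after their values were seen), and the ratio overlapped for ND4, ND4L, ND5 and ND6. Without control 2 their log2 fold changes ran from -0.58 to -0.01. CYTB and ND1 thus had like values, -0.98 and -0.97, while COX1 differed from all 7 in sign, with the reservation above that this sign turned without control 1 or resveratrol 3.

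The nuclear genes whose products join or serve these subunits were described from 9 lists with 100 tested genes. In edgeR 0 of the 100 had an unadjusted p under 0.05 in either direction, against 6.53% of all tested rows. After adjustment 0 passed, as over all rows (0%). Of the 100, 77 had a log2 fold change above 0, with a median of 0.15. DESeq2 and limma likewise called none of them after adjustment. Over all tested rows 48.8% were above 0.

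For complex III, where CYTB belongs, all 7 tested nuclear subunits were above 0 (median 0.19). The median was -0.0064 without resveratrol 3, 0.05 without control 1, 0.10 without control 2, 0.38 without resveratrol 1 and 0.49 without control 3. The subunits include CYC1, the cytochrome c1 subunit, at 0.19 and UQCRC1, a core subunit, at 0.41 (SE 0.31). CYTB itself stood at -0.98. Among 6 complex III assembly factors, BCS1L, which inserts the iron-sulfur subunit, stood at 0.44 (SE 0.21) and TTC19, which helps clear fragments of that subunit, at -0.42 (SE 0.20). For complex IV, 10 of 11 nuclear subunits were above 0 (median 0.23). The median was 0.04 without control 2, 0.08 without resveratrol 3, 0.36 without resveratrol 1 and 0.58 without control 3. The subunits include COX4I1, the regulatory subunit, at 0.11 and COX7B at 0.33 (SE 0.21), while COX5A stood at -0.06. COX1, COX2 and COX3 stood at 0.12, -0.33 and -0.54. Among 15 assembly factors of complex IV, 11 were above 0 (median 0.13). COX15, of haem A synthesis, stood at 0.23 (SE 0.17) and SCO1, which delivers copper, at -0.09 (SE 0.16).

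For the ATP synthase, all 11 tested genes of the nuclear list were above 0 (median 0.18). The median was 0.06 without control 2, 0.06 without resveratrol 3, 0.12 without control 1, 0.32 without resveratrol 1 and 0.39 without control 3. The list includes the alpha subunit ATP5F1A at 0.09 and DMAC2L, not itself a core subunit, at 0.39 (SE 0.20). ATP6 and ATP8 stood at -0.66 and -1.14. Of 5 genes for its assembly and inhibition, 4 were above 0 (median 0.11), with FMC1, an assembly factor, at 0.51 (SE 0.23) and TMEM70 at -0.07. Genes that copy and transcribe mitochondrial DNA had a median of 0.03 (10 of 14 above 0). TFAM, which packs the DNA and starts transcription, stood at 0.10 (SE 0.18), the RNA polymerase POLRMT at -0.02 (SE 0.17), its elongation factor TEFM at 0.48 (SE 0.23) and the topoisomerase TOP1MT at -0.18.

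Genes that process, stabilise or translate mitochondrial messages had a median of 0.08 (19 of 28 above 0). LRPPRC and SLIRP, which form a complex that protects these messages, stood at 0.21 (SE 0.20) and 0.28 (SE 0.23). The translation factor TSFM stood at 0.41 (SE 0.21) and FASTKD1 at -0.30 (SE 0.25). The list of electron carriers and their partners held 3 genes, with a median of -0.04, and its COQ10A stood at -0.11 (SE 0.23). The smallest adjusted p among these genes in edgeR was 0.733. The difference between the nuclear sets and the 6 mitochondrially encoded genes was not tested.

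**Figure D5:**
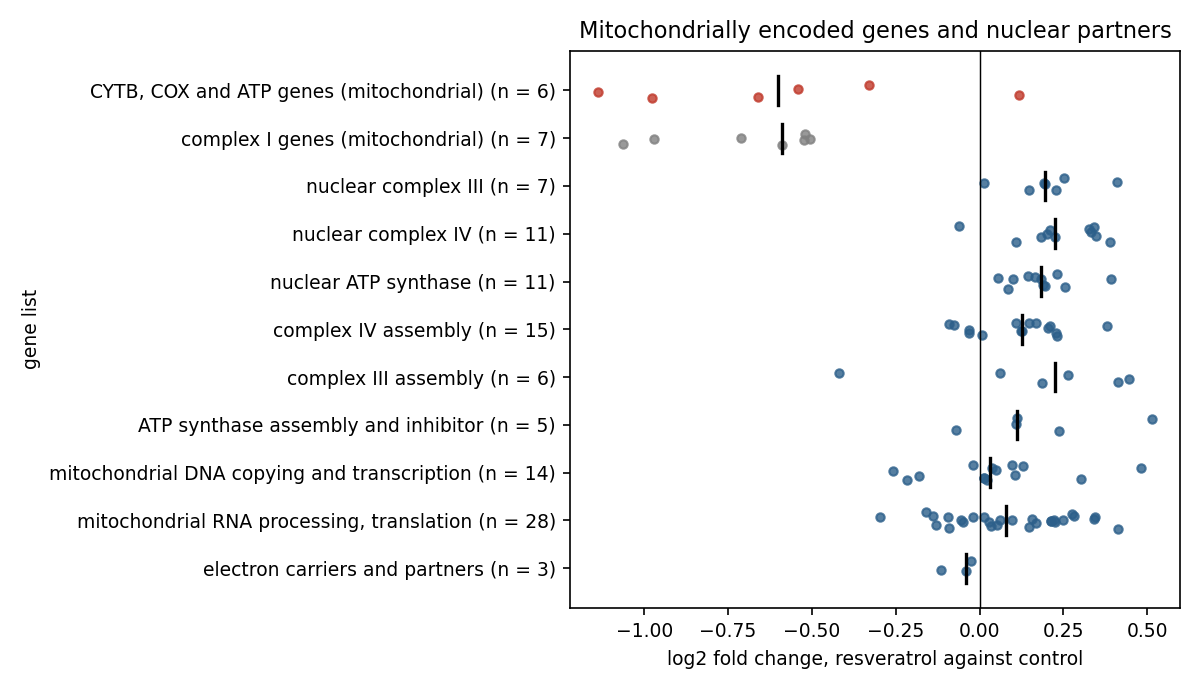
Log2 fold change of resveratrol against control (edgeR) for each gene of the mitochondrially encoded sets and of the 9 nuclear lists, with 1 point per gene and a bar at the list median. The 6 CYTB, COX and ATP genes have a median of -0.60 and the nuclear lists of complexes III, IV and V medians of 0.19, 0.23 and 0.18. Vertical scatter within a list is for visibility only.

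Genes with a like pattern over the 6 libraries were sought among nuclear genes with a mean of at least 10 TPM and a spread within 1.5 times that of the member, by the root mean square difference of centred log2 scaled counts. For COX1, among 3238 genes, the nearest were HSPD1, a chaperonin (difference 0.036), GRK3, a receptor kinase (0.055), and DPY19L1 (0.064), against a COX1 spread of 0.26 (SD over libraries). HSPD1 measured 91.7, 88.1 and 105 TPM in resveratrol 1, 2 and 3, against 68.1, 121 and 96.3 TPM in control 1, 2 and 3. In TPM, HSPD1 and COX1 were each lowest in control 1 and highest in control 2. In the scaled counts used for the match, COX1 was also lowest in control 1 but highest in resveratrol 3, above control 2. For CYTB, among 408 genes, the nearest were SUN3 (0.24), CYFIP1 (0.24) and HNRNPD (0.25), against a CYTB spread of 0.65. CYFIP1, a regulator of actin and translation, measured 68.5, 74.2 and 57.3 TPM in resveratrol, against 72.6, 179 and 62.0 TPM in control, so control 2 was again highest. These genes were picked for likeness over 6 libraries out of many, and this is a description.

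In this bulk tissue, fewer cells of a type and less RNA per cell cannot be told apart. Control 1, with the lowest COX1, also had the lowest summed adipocyte markers (17112 TPM) and the highest summed tendon and cartilage markers (338 TPM), and their part in the COX1 values was not tested. Control 2, with the highest CYTB, ATP6, ATP8, COX2 and COX3, had 23517 TPM of adipocyte markers, 1.83 TPM of skeletal muscle markers, 33.9 TPM of tendon and cartilage markers, 1598 TPM of fibroblast markers and 1003 TPM of erythrocyte markers, all within the range of the other libraries. It had the highest summed markers of vessel endothelium (298 TPM) and the lowest of macrophages (228 TPM) of the 6 libraries. The macrophage markers did not go one way there. TYROBP (83.1 TPM) and CD14 (10.2 TPM) were the lowest of all libraries. CD163 (33.6 TPM), AIF1 (36.3 TPM), MRC1 (14.6 TPM) and MSR1 (7.69 TPM) were the highest of the control group. The part of these cell types in the values of control 2 was not tested.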

How the data were processed

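RNA was extracted with Trizol from fat, and libraries were made with a long non-coding RNA kit, per the labels' protocols. The authors deposited 1 table per library with whole-number read counts and TPM per gene, per the file headers. The submitters' processing notes name Bowtie 0.12.2 with mm8 and mm9, which are mouse builds, while the rows carry pig Ensembl identifiers. No source used here gives the pig build, the counter or its use of strand, so no coordinates are printed. Symbols came from a table of gene identifiers (14750 of 22844 rows matched).

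Rows that averaged 0.5 TPM or more were tested (14908 rows, all 6 members among them). Library sizes were adjusted by edgeR's trimmed mean of M values (TMM), followed by the robust quasi-likelihood test of edgeR 4.0.16 in R 4.3.3, with Benjamini-Hochberg adjustment over all rows and a threshold of 0.05. A standard error is the log2 fold change over the square root of F. The test was tried on simulated counts with known fold changes. Shares and ratios were tested by two-sided exact permutation (SciPy 1.17.1). limma 3.58.1 on log2 TPM and DESeq2 1.42.0 were alternatives. Of each nuclear list the gene with the smallest unadjusted p in each direction was named, and 8 genes were to be named in any case, of which 7 were tested under their symbol. The members and lists were chosen with earlier results of these data known.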

Additional observations from a re-analysis of the deposited data

How the results depend on the processing

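The 5 log2 fold changes below 0 (CYTB, COX2, COX3, ATP6 and ATP8) stayed below 0 under all 18 alternatives each, and no member passed the adjusted threshold in any of them. Leaving out each library in turn gave -1.19 to -0.44 for CYTB, -0.51 to -0.04 for COX2, -0.72 to -0.32 for COX3, -0.89 to -0.28 for ATP6, -1.47 to -0.23 for ATP8 and -0.055 to 0.25 for COX1, whose sign turned in 2 of 18 alternatives (-0.055 without control 1 and -0.0016 without resveratrol 3). Over all genes, 40 passed with DESeq2 and 5 without control 2, against 0 in edgeR on 6 libraries, and the cause was not tested. The genes at an unadjusted p under 0.05 numbered 556 without resveratrol 1, 403 without resveratrol 3 and 1681 without control 3, against 973.

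The difference in the share of the 6 genes in all reads, 0.0044 percentage points, turned to -0.22 in deposited TPM and to -0.047 without the 2 largest assembled loci in the total, and ran from -0.25 to 0.32 when each library was left out. The directions of the 6 shares within the set and of the COX1 to CYTB ratio were the same under every alternative run for them, but their sizes were not. The CYTB share differed by -1.82 percentage points, and by -1.13 without control 2. The ATP8 share differed by -0.077, and by -0.026 without control 2, and the COX3 share by -3.83, and by -2.12 without resveratrol 3. Leaving out each library gave nuclear list medians from -0.0064 to 0.49 for complex III, 0.04 to 0.58 for complex IV, 0.06 to 0.39 for the ATP synthase, 0.03 to 0.19 and 0.17 to 0.42 for the assembly factors of complexes IV and III, 0.08 to 0.40 for those of the ATP synthase, 0.05 to 0.13 for DNA copying and transcription, 0.03 to 0.16 for RNA processing and translation, and -0.17 to 0.05 for the electron carriers. In limma on log2(TPM + 0.5) the medians turned negative for DNA copying and transcription (-0.040) and for RNA processing and translation (-0.0014). With library totals alone that of the electron carriers turned positive (0.017). In TPM the COX2 and COX3 shares overlapped between groups.

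The replicate numbers are shared by number only: deviations from the group means correlated by 0.16, 0.07 and 0.20 for the same-numbered pairs, and each library correlated best with its own number, a hint from the data and not the design. With the replicate block in edgeR, 1259 genes had an unadjusted p under 0.05 and 0 passed, with log2 fold changes of -0.85 for CYTB and ATP8, -0.59 for ATP6, -0.54 for COX3, -0.29 for COX2 and 0.13 for COX1. The block changed no call after adjustment, and left CYTB alone of the 6 at an unadjusted p under 0.05 (ATP6 unadjusted p = 0.0503).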
